A study of Homo sapiens with 4 samples.

Results

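The H4K20me1 peaks described here are those on chromosome 2 that start below 90 Mb, which takes in most of the short arm. They were 651 of 25514 peaks in a table of CUT&Tag signal, against 885 on the rest of the chromosome. The stretch was chosen by its low difference between the table's 2 value columns, so that difference is described below and not tested. The study profiled Kasumi-1, an acute myeloid leukemia cell line with the translocation t(8;21), in 4 libraries. Of these 2 were controls with a non-targeting guide (sgNT, genotype given as WT), and 2 came from cells with a guide against SETD8 (genotype SETD8 knockout). Both groups are thus the same line with a CRISPR/Cas9 guide, and the labels do not say whether the libraries marked #2 used a further guide or were separate cultures.

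In CUT&Tag an antibody brings the Tn5 transposase to chromatin that carries a mark, and the DNA it cuts there is sequenced. H4K20me1, histone H4 with a single methyl group on lysine 20, is placed by SETD8 (gene symbol KMT5A). The mark builds up as cells pass through division, lies over the bodies of many active genes, and is the substrate for enzymes that add further methyl groups. The table gives each peak 1 log2 value in each of 2 columns, for treated and control, and no value per library, so the spread between replicates could not be seen. How many of the 4 libraries it holds is not stated; the submitters' processing notes name DESeq, which its name carries, for the libraries without #2 only. Each column's low values fit whole reads times 1 factor. Which group each column holds is not stated, although in the table's name the treated group stands ahead of the control. Differences are given as first-listed minus second-listed on the log2 scale, after the authors' scaling. Whole read numbers were recovered from the values and came to 2791207 (first-listed) and 2682916 (second-listed) over all peaks. The table holds reads of a histone mark and no expression, so the loss of SETD8 itself could not be checked. Intervals are exact 95% Clopper-Pearson intervals for these reads and cover counting error only. No library of input DNA was used here, so values are reads per peak, not mark per copy of DNA.

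The promoter sequences of 5 genes are shown because their peaks stood at the low or the high end of the region. They run from 250 bases before to 50 bases after a RefSeq start (GRCh38.p14, 5′ to 3′ on the gene's strand), with each CG dinucleotide in capitals. Among genes with at least 300 reads in both columns together, MYT1L (chr2:2326262-2326561, minus strand) and TMEM18 (chr2:676655-676954, minus) are the lowest whose promoter peak overlaps a listed promoter window. LAPTM4A (chr2:20051579-20051878, minus) and BIRC6 (chr2:32356966-32357265, plus) are the highest such genes, by all peaks of the gene together. The promoter peaks of MYT1L (−0.24) and LAPTM4A (−0.03) themselves were nearer 0 than those of TMEM18 (−0.74), BIRC6 (0.57) and RRM2 (−0.80). RRM2 (chr2:10122489-10122788, plus) was added after its value was seen. Under its own symbol it held 208 reads, short of the 300. The peak under C2orf48, described below, was counted apart, and this ranking holds for symbols taken separately.
MYT1L: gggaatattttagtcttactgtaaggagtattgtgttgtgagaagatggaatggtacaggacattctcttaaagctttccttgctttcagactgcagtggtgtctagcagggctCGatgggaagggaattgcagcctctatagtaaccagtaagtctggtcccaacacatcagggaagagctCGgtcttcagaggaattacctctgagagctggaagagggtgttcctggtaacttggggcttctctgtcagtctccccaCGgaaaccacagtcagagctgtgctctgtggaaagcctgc
TMEM18: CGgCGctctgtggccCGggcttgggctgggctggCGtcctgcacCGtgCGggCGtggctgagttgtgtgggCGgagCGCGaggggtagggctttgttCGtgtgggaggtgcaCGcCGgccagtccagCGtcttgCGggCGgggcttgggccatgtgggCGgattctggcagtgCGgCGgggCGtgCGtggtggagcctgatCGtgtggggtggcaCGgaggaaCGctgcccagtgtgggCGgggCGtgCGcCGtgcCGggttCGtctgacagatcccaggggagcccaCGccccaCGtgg
LAPTM4A: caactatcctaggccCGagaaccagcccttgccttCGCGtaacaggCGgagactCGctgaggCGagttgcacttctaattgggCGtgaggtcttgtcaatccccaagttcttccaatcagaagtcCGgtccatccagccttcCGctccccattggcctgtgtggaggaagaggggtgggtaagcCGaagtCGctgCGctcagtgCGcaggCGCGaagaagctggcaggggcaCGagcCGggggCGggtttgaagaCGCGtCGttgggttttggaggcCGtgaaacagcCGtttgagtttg
BIRC6: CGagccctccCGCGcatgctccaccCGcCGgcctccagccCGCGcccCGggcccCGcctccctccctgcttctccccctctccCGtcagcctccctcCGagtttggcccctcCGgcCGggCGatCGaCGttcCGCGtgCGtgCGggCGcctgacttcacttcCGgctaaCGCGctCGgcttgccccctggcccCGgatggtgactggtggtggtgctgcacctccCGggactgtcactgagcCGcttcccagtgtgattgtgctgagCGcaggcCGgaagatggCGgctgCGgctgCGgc
RRM2: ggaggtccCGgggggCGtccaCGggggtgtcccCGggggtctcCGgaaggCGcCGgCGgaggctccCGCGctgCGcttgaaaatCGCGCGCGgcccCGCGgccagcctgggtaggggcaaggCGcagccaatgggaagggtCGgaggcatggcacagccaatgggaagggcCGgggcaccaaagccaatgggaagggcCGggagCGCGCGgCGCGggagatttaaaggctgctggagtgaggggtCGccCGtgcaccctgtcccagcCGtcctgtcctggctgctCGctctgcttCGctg

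The MYT1L window held 3 CG dinucleotides, whereas TMEM18 held 32, RRM2 31, BIRC6 33 and LAPTM4A 23. Both TMEM18 and RRM2, on the low side, and BIRC6, on the high side, thus had CG-rich starts. Over the 160 genes below 90 Mb with a promoter peak and a listed sequence the median was 28 CG dinucleotides, and over the 681 without a promoter peak it was 7. Genes beyond 90 Mb with a promoter peak had a median of 29 (192 promoters), and all 27305 genes in the RefSeq table one of 14. Peaks in promoters therefore lay at CG-rich starts on both parts of the chromosome. The letters CCAAT, searched on both strands, occurred 3 times each in RRM2 and LAPTM4A and not in the other windows printed. At least 1 CCAAT was found in 43.1% of promoters with a peak below 90 Mb, 44.3% of those beyond and 35.7% of all promoters. TGTGGT, a core sequence bound by RUNX factors, was found on either strand in 10.0%, 10.4% and 13.1% of the same sets, and of the windows printed in MYT1L alone.

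The median difference of the 651 peaks was −0.19 (quartiles −0.46 and 0.06), and that of the 885 peaks beyond 90 Mb was 0.06 (−0.21 and 0.35). All other chromosomes, with 23978 peaks, also had a median of 0.06. Below 90 Mb 449 peaks were below 0, 191 above and 11 at 0. Of the 651 peaks 484 (74.3%) lay under the median of the peaks beyond 90 Mb, whereas 404 of the 885 beyond (45.6%) did so. The low values were thus spread over most peaks. For a single peak the reads were often too few to tell: 195 peaks (30.0%) had an interval wholly under 0.06, 18 (2.76%) one wholly over it, and 438 spanned it. Beyond 90 Mb the same numbers were 74 (8.36%), 105 (11.9%) and 706.

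Summed over the region, 62341 first-listed and 74413 second-listed reads gave a log2 ratio of −0.20 (interval −0.21 to −0.18). The rest of the chromosome, with 69706 and 66913 reads, gave 0.12 (0.10 to 0.13). The region held 2.23% of all first-listed and 2.77% of all second-listed reads in peaks, while the rest of the chromosome held 2.50% and 2.49%. The median peak below 90 Mb had 66 first-listed and 83 second-listed reads. Beyond 90 Mb the medians were 58 and 59, and on the other chromosomes 73 and 73. The region's second-listed median was thus above, and its first-listed median below, that of the other chromosomes.

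In the authors' deposited table, whose p-values are DESeq's by the submitters' processing notes, 0 of the 651 peaks passed at an adjusted p under 0.05, and the smallest was 0.649. At an unadjusted p under 0.05 in that table, 42 peaks of the region were lower in the first-listed column (6.45%), beside a background of 1.69% of all peaks. Higher peaks numbered 3 (0.461%), beside 3.37% of all peaks. These p-values come from the contrast that chose the region, so nothing is read from the counts. How the authors estimated the spread within a group is not given in the sources used here.

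Peaks were also a little denser below 90 Mb. There were 7.23 peaks per Mb, against 5.83 per Mb beyond, although protein-coding genes were spaced alike (5.21 and 5.17 per Mb). Median peak width was 1132 bp below and 1085 bp beyond. Peaks at or above the median signal of the whole table made up 51.6% of those below 90 Mb, 37.2% of those beyond and 50.6% of those on the other chromosomes. The share in the lowest step of both columns was small below 90 Mb, at 4 of 651 peaks, against 22 of 885 beyond. The part beyond includes 46 shallow peaks from 90 to 95 Mb, with median reads of 2 and 1. These are levels and counts over both columns together, and they have no replicate check. The region was chosen by the difference between the same columns, and how peaks were called is not given. Peak density and signal levels may therefore not be independent of that choice, and nothing further is read from them.

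All 18 windows of 5 Mb below 90 Mb had a median under 0.06, and 17 had one below 0. Of the 31 windows beyond 90 Mb 13 were under 0.06 and 9 below 0. The interval of the summed reads lay wholly below 0 in 18 of 18 windows below 90 Mb and in 1 of 31 beyond, that from 160 to 165 Mb (−0.16, −0.24 to −0.08). Medians below 90 Mb ran from −0.41 to 0.00 and those beyond from −0.175 to 0.49, so the ranges overlapped. The last window before the limit, 85 to 90 Mb, lay within the range of the others, with 3517 and 4166 reads and a ratio of −0.19 (−0.25 to −0.12). From 90 to 95 Mb, which takes in the centromere, 46 peaks held only 597 and 576 reads, with a ratio of 0.11 (−0.06 to 0.28). The next window, from 95 to 100 Mb, gave 0.23 (0.16 to 0.30).

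**Figure D1:**
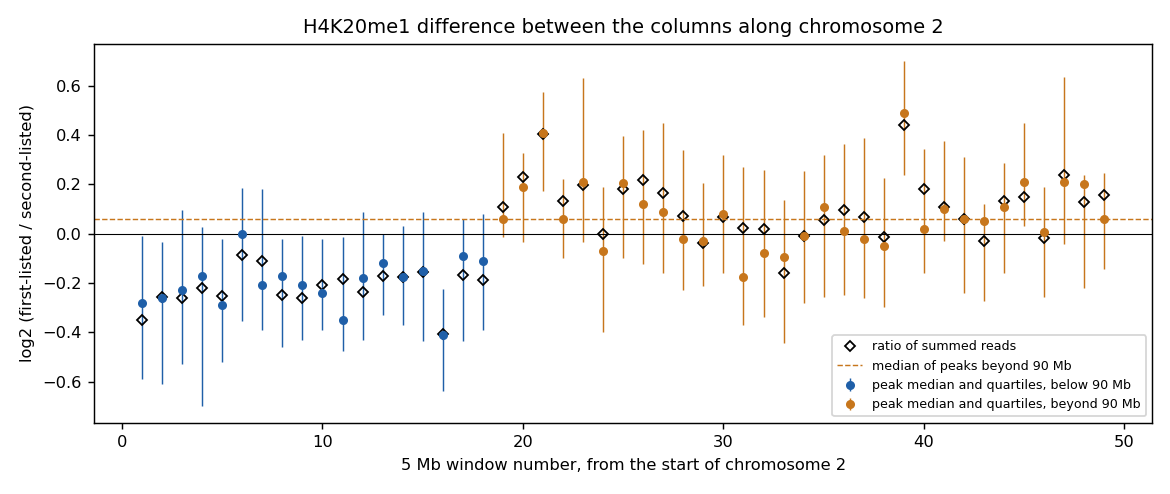
Difference between the columns along chromosome 2 in windows of 5 Mb, numbered from the chromosome's start (x axis); the y axis is log2 of first-listed over second-listed. Circles and bars are the median and quartiles over peaks, open diamonds the ratio of summed reads, and the dashed line the median of peaks beyond 90 Mb (0.06): the 18 windows below 90 Mb have medians from −0.41 to 0.00.

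At the limit itself the peaks were shallow. The last 3 peaks before 90 Mb had differences of −0.53, 0.13 and 0.06, on 4, 39 and 15 first-listed reads. The first 3 after it had 0.86, 1.73 and 0.06, on 14, 32 and 1 first-listed reads. These few reads place no edge at the limit, which is a round number.

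The lowest window was 75 to 80 Mb, where 16 of 19 peaks lay under 0.06 and 862 and 1188 reads gave −0.41 (−0.53 to −0.28). It held 10 protein-coding genes and no promoter peak, and its gene peaks were in CTNNA2 and LRRTM4. The window from 50 to 55 Mb had a median of −0.35, and the first 5 Mb of the chromosome one of −0.28. At the other end, the 48 peaks from 25 to 30 Mb had a median of 0.00, with 25 of 48 under 0.06. Their summed reads, 5651 and 6238, still gave −0.09 (−0.14 to −0.03). That window held 68 protein-coding genes, as did 70 to 75 Mb, whose median was −0.15. Across the 18 windows the median difference and the number of coding genes had a Pearson r of 0.57 (Spearman 0.46), and across the 31 beyond 90 Mb one of 0.24 (0.35). This is a description of windows that share both columns and differ in their mix of peak classes.

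Of 34 windows of 1 Mb with at least 8 peaks, 28 had a median under 0.06. The 5 lowest began at 2 Mb (MYT1L, −0.405), 39 Mb (SOS1, −0.40), 71 Mb (ZNF638 and DYSF, −0.37), 19 Mb (−0.345) and 47 Mb (CALM2, MSH6 and FBXO11, −0.295). The 5 highest began at 32 Mb (BIRC6 and YIPF4, 0.21), 11 Mb (LPIN1, GREB1 and ROCK2, 0.16), 28 Mb (PPP1CB and FOSL2, 0.13), 25 Mb (DNMT3A, DTNB and ASXL2, 0.10) and 69 Mb (AAK1 and MXD1, 0.08). By summed reads 1 of these 5 had an interval wholly above 0, at 32 Mb (0.11, 0.00 to 0.22). By peak medians, the value that picked them, these windows stood above the 0.06 of the rest of the chromosome. By summed reads those at 11, 28, 69 and 25 Mb gave 0.04, 0.03, −0.04 and 0.10, against 0.12 for the rest. Not each gene in them was high. At 11 Mb LPIN1 was above 0, but GREB1 gave −0.50 (−1.03 to 0.02) and ROCK2 −0.38 (−0.70 to −0.06). Among windows with fewer peaks, 37 to 38 Mb stood higher, with 4 peaks, all in promoters, and 339 and 270 reads (0.39, 0.15 to 0.62). Its genes were EIF2AK2, CEBPZ, GPATCH11 and PRKD3, and PRKD3 was on the low side (−0.46, −0.95 to 0.03).

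Of peaks below 90 Mb 74.3% lay under 0.06, against 45.6% beyond, so longer low runs are no separate result. The longest unbroken run of peaks under 0.06 had 24 members, from CALM2 to beyond LHCGR (chr2:47163417-49329786), against 10 at most beyond 90 Mb. It covered MSH6, a DNA mismatch repair gene, which had 334 and 461 reads in its 2 promoter peaks (−0.41, −0.62 to −0.20). FBXO11, which encodes the substrate receptor of a ubiquitin ligase, had 10 peaks in this run, all of them below 0, from −0.50 to −0.05. The longest run at or over 0.06 had 7 peaks (chr2:25258054-25855206), in DNMT3A, DTNB and ASXL2. Beyond 90 Mb the longest such run had 15 peaks (chr2:92355035-92771624), in the shallow stretch near the centromere. Neighbouring peaks had a Pearson r of 0.20 below 90 Mb (650 pairs) and 0.12 beyond (884 pairs), and the pairs share both columns.

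Promoter, intron and intergenic peaks each had a median below 0. Below 90 Mb, promoter peaks (up to 3 kb from a start) had a median of −0.19 (222 peaks), against 0.14 beyond (272 peaks). Introns had −0.14 (239 peaks) against 0.06 (326), and distal intergenic peaks −0.28 (143) against 0.06 (243). On the other chromosomes the same medians were 0.09, 0.11 and 0.00. Of promoter peaks below 90 Mb 77.9% lay under 0.06, of intronic peaks 68.2% and of intergenic peaks 79.0%. The 20 UTR peaks had a median of −0.295, against 0.25 for 12 beyond. The 24 exonic peaks below 90 Mb had a median of −0.06 and the 29 beyond one of −0.10. By summed reads, however, exons stood at −0.21 (−0.29 to −0.13) below and 0.07 (−0.01 to 0.15) beyond, and introns at −0.11 and 0.13.

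**Figure D2:**
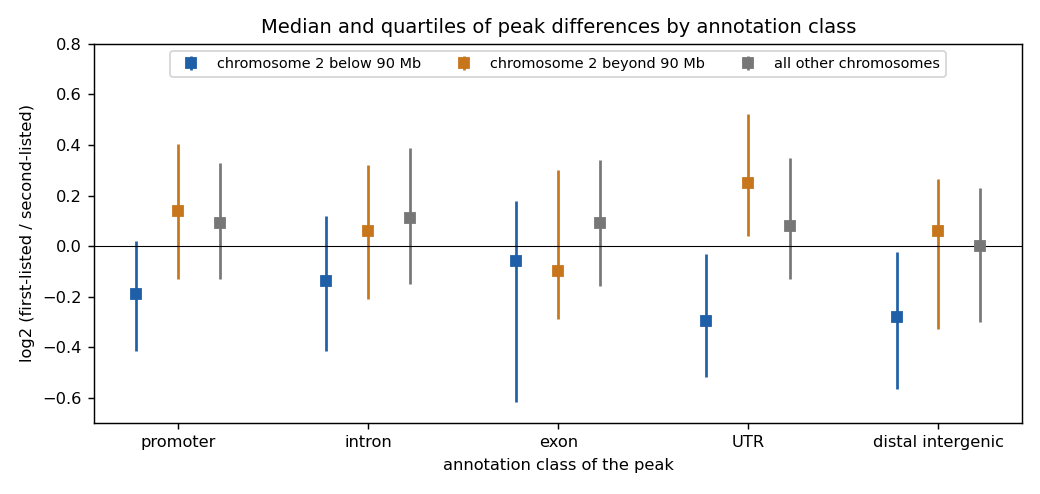
Median (squares) and quartiles (bars) of the peaks' log2 differences (y axis) by annotation class (x axis) for chromosome 2 below 90 Mb, chromosome 2 beyond 90 Mb and all other chromosomes. The region's promoter, intron and intergenic medians are −0.19, −0.14 and −0.28. For exons and for introns, the medians of both parts of chromosome 2 lie within each other's quartiles.

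Intergenic peaks far from genes were the lowest. The 99 that lay 50 kb or more from a start had a median of −0.34, and the 44 nearer ones −0.175. Beyond 90 Mb the same medians were −0.02 (198 peaks) and 0.09 (45 peaks). Signal strength made little difference below 90 Mb, where 4 classes of signal, from weakest to strongest, had medians of −0.20, −0.19, −0.19 and −0.19. Beyond 90 Mb the medians went from 0.02 in the weakest class to 0.21 in the strongest, and on the other chromosomes from 0.06 to 0.165. The gap between the parts of the chromosome was thus widest among the strongest peaks.

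Within genes, the promoter tended to be lower than the introns. Of 56 genes below 90 Mb with peaks in both, 36 had a lower log2 ratio of summed reads at the promoter and 20 a higher one. The median promoter stood at −0.19 and the median intron at −0.03. Beyond 90 Mb, 34 of 67 such genes were lower at the promoter. Promoter and introns were both under 0.06 in 33 of the 56 genes, and both over it in 5. Beyond 90 Mb the same counts were 13 and 27 of 67 genes. Over all peaks of the other chromosomes, summed reads also stood lower at promoters (0.12) than in introns (0.18). Whether this difference between promoter and intron itself differs between the parts of the chromosome was not tested.

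Of the 651 peaks 463 were given to 228 genes. A gene's value is the log2 ratio of reads summed over its peaks, and 185 of the 228 (81.1%) lay under 0.06. Interval counts of genes and lists use this 0.06, which is a median over single peaks. By summed reads the rest of the chromosome stood at 0.12. With at least 300 reads in both columns together there were 98 named genes, with a median of −0.16. The interval lay wholly under 0.06 for 48 of these 98 and wholly over it for 5. Beyond 90 Mb, the same numbers were 10 and 32 of 102 genes, whose median was 0.18.

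The lowest of the 98 was C2orf48, a symbol of the authors' table that RefSeq lists as an older name of RRM2. Its promoter peak (chr2:10141086-10142716) held 174 and 359 reads (−0.99, −1.26 to −0.72). It lies within the RefSeq span of RRM2, which encodes the small subunit of ribonucleotide reductase and makes deoxynucleotides for replication. The promoter peak of RRM2 (chr2:10122396-10123576) covered the start printed above and had 74 and 134 reads (−0.80, −1.23 to −0.38). MYT1L, a zinc-finger factor of neurons, was low in all of its 5 peaks (−1.27 to −0.24), with 136 and 243 reads in sum (−0.78, −1.09 to −0.47). Its lowest peaks were in introns 4 and 5, while the promoter window printed above had 22 and 27 reads (−0.24).

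TMEM18, a membrane protein of the nuclear envelope, had 1 peak of 191 and 332 reads at its CG-rich promoter (−0.74, −1.01 to −0.48). SLC35F6, a member of a solute carrier family, followed with 163 and 278 reads at its promoter (−0.71). SRSF7, a serine/arginine-rich splicing factor, had 3 peaks. The one at its start (chr2:38749875-38751711) held 153 and 308 reads (−0.95), and the one just past its end 98 and 107 (−0.07). In SOS1, the exchange factor that activates RAS, all 4 peaks lay between −0.88 and −0.46 (sum 258 and 413 reads, −0.62, −0.85 to −0.39). PPP4R3B, a regulatory subunit of protein phosphatase 4, gave −0.60 on the most reads of these genes, 338 and 533. CTNNA2 (−0.57), PUS10 (−0.50), a pseudouridine synthase, and ZFP36L2 (−0.49), which promotes decay of AU-rich mRNAs, completed the 10.

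**Figure D3:**
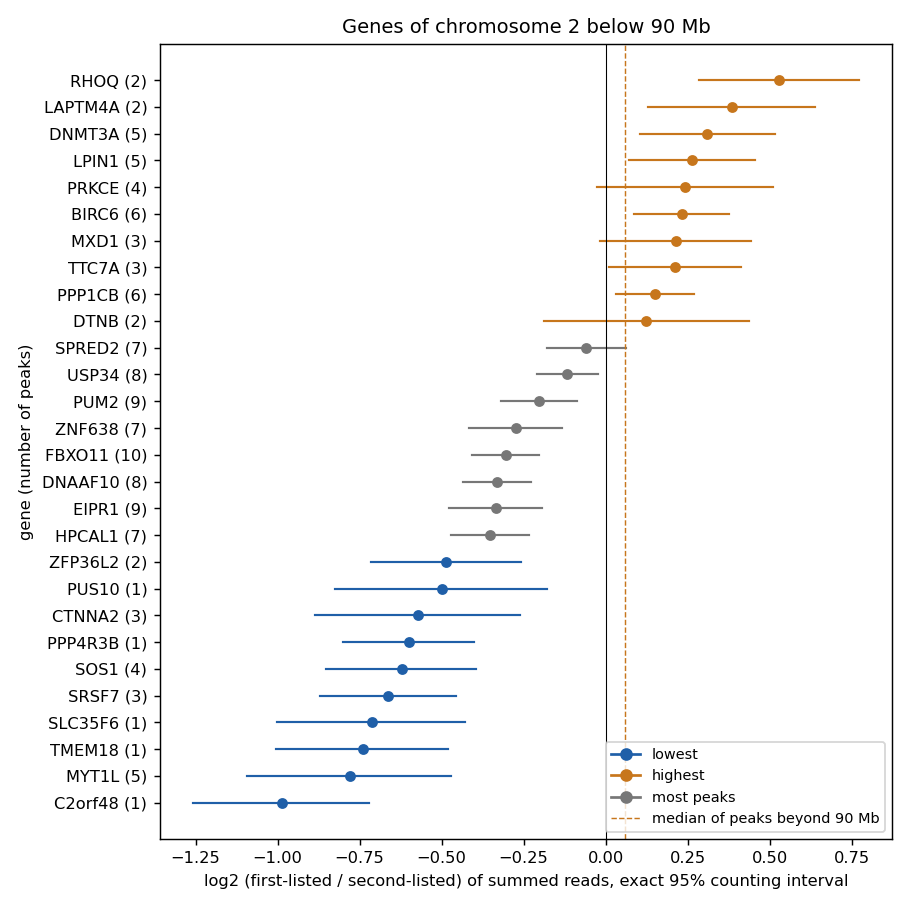
Log2 ratio of first-listed over second-listed reads summed over a gene's peaks (x axis, with exact 95% counting intervals) for the 10 lowest, the 10 highest and the 8 genes with most peaks of those with at least 300 reads; the number of peaks is in brackets. Intervals of RHOQ, LAPTM4A, DNMT3A, LPIN1 and BIRC6 lie to the right of the dashed line at 0.06.

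Of the genes with at least 300 reads, those with an interval over 0.06 were RHOQ, LAPTM4A, DNMT3A, LPIN1 and BIRC6. Against the 0.12 of the rest of the chromosome by summed reads, the lower bounds of RHOQ (0.28) and LAPTM4A (0.13) stayed above. Those of DNMT3A (0.10), LPIN1 (0.07) and BIRC6 (0.09) did not. RHOQ, a small GTPase also named TC10, was highest, with 212 and 154 reads in 1 intronic peak and 122 and 87 in the other (sum 0.53, 0.28 to 0.77). LAPTM4A, a lysosomal membrane protein, had 214 and 150 reads in intron 1 (0.57), but 77 and 82 at the promoter printed above (−0.03). DNMT3A, a de novo DNA methyltransferase that is often mutated in acute myeloid leukemia, had 4 intronic peaks at 0.78, 0.09, 0.67 and 0.20. The peak in its 3′ UTR gave −0.40, and the sum of 429 and 360 reads gave 0.31 (0.10 to 0.52), or 0.17 by nearest gene. LPIN1, a phosphatidate phosphatase of lipid synthesis, was above 0 in each of its 5 peaks, from 0.16 to 0.41 (sum 0.26, 0.07 to 0.46).

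In BIRC6, a large inhibitor of apoptosis with ubiquitin ligase activity, the promoter carried the largest difference, with 272 and 191 reads (0.57, 0.29 to 0.84). The next peak, in intron 1, went the other way, with 207 and 238 reads (−0.15), and the other 4 intronic peaks lay between 0.21 and 0.31. PPP1CB, a catalytic subunit of protein phosphatase 1, also had peaks on both sides of 0, from −0.35 to 0.74, and a sum of 0.15 (0.03 to 0.27). TTC7A (0.21, 0.01 to 0.41), MXD1 (0.21, −0.02 to 0.44), a partner of MAX that opposes MYC, PRKCE (0.24, −0.03 to 0.51) and DTNB (0.12, −0.19 to 0.44) completed the 10 highest. Their intervals spanned 0.06.

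The genes with most peaks were on the low side. FBXO11 (10 peaks, 1370 and 1761 reads) gave −0.31 (−0.41 to −0.20), and HPCAL1, a neuronal calcium sensor protein, was the lowest of the 8 (7 peaks, −0.35, −0.47 to −0.23). EIPR1 (9 peaks, −0.33, −0.48 to −0.19) was uneven, with 7 peaks below 0, 1 at 0.18 in an exon and 1 at 0.67 near an inner start (chr2:3285662-3286940). DNAAF10 (8 peaks) gave −0.33 (−0.44 to −0.23), but 0.017 when each peak was given to its nearest gene. Its promoter peak gave 0.02, and the 7 intronic peaks had PNO1 or PPP3R1 as nearest gene. The low value of DNAAF10 thus rests on how peaks were assigned. PUM2, an RNA-binding translational repressor, gave −0.20 (−0.32 to −0.09), ZNF638 −0.27 (−0.42 to −0.13) and USP34, a deubiquitinase, −0.12 (−0.21 to −0.02). SPRED2, an inhibitor of RAS signalling, was closest to the rest of the chromosome (−0.06, −0.18 to 0.06).

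Among single peaks of at least median signal, the 3 lowest included 2 in intergenic DNA, at chr2:84039226-84040908 (56 and 140 reads, −1.27) and chr2:5509493-5510598 (47 and 117 reads, −1.26). The third was the promoter of PIGF, an enzyme of GPI anchor synthesis (49 and 110 reads, −1.11). The highest was the promoter of EIF2AK2 (chr2:37154772-37156597), with 116 and 58 reads (1.06, 0.59 to 1.54). EIF2AK2 encodes PKR, the kinase that halts translation when it meets double-stranded RNA. It was followed by intron 1 of FBXO41 (112 and 60 reads, 0.96) and the last intron of PPP1CB (164 and 102 reads, 0.74).

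Each list of genes with more than 1 measured member had members below 0. Over 8 lists with 143 genes of the region, 85 had a peak, of which 60 were below 0 and 66 under 0.06. Their median was −0.13, beside −0.15 over all 228 genes. Of all 228 genes 166 (72.8%) were below 0, 90 (39.5%) had an interval wholly under 0.06 and 9 (3.95%) one wholly over it, and the counts of each list stand beside these shares.

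In the list of replication, cell division and repair, 14 of 20 genes had a peak, 10 of them below 0, with a median of −0.33. The interval was wholly under 0.06 for 7 and wholly over it for 1, BIRC6, beside 39.5% and 3.95% of all genes. Besides RRM2 and MSH6, low members were PPP4R3B, CENPO (−0.52, −0.93 to −0.12), a centromere protein, and ATAD2B (−0.36, −0.66 to −0.07). GEN1, a nuclease that resolves Holliday junctions, gave 0.02 (−0.44 to 0.48). The highest, BABAM2, rested on 37 and 30 reads (0.36, −0.37 to 1.10).

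Mitochondrial proteins had 12 of 20 genes with a peak, 8 below 0, and a median of −0.10. MDH1, the mitochondrial list's lowest member and in fact the cytosolic malate dehydrogenase of the malate-aspartate shuttle, had 63 and 112 reads at its promoter (−0.77, −1.24 to −0.32). COX7A2L, an assembly factor of respiratory supercomplexes (−0.41, −0.72 to −0.11), LRPPRC, which stabilises mitochondrial mRNAs (−0.37, −0.70 to −0.05), and MTHFD2 of the folate cycle (388 and 485 reads, −0.26, −0.46 to −0.07) were the other 3 with an interval under 0.06. HADHA (−0.06), HADHB (−0.05) and IMMT (0.01) stood near 0, and HTRA2, a protease of the intermembrane space, was highest (0.38, −0.03 to 0.80).

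RNA processing and translation genes had the most intervals over 0.06, with 15 of 22 genes measured, 10 below 0 and a median of −0.12. Intervals lay under 0.06 for 7 genes and over it for 3, beside 39.5% and 3.95% of all genes. SRSF7, ZFP36L2, HNRNPLL (−0.34, with 1 of 3 peaks below 0), PUM2 and SNRPG, a core spliceosomal protein (−0.46, −0.72 to −0.20), were among the 7. The 3 were EIF2AK2, SF3B6 (73 and 48 reads, 0.66, 0.12 to 1.22), a subunit of the SF3b complex, and CEBPZ (115 and 76 reads, 0.65, 0.22 to 1.09). EIF2AK2 and CEBPZ are near neighbours, at 37.2 Mb. XPO1, the main nuclear export receptor, gave 0.05 on 359 and 361 reads.

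Chromatin regulators and transcription factors had 16 of 29 genes with a peak, 10 below 0, and a median of −0.08. TET3, which oxidises 5-methylcytosine, had the most reads (1913 and 2192, −0.14, −0.23 to −0.05). Its promoter peaks were low, at −0.36 and −0.35, while its peaks in intron 2 were at 0.01, −0.14 and 0.26. SERTAD2 (−0.36, −0.50 to −0.23) and ZNF512 (−0.34) were low too. FOSL2 of the AP-1 family gave −0.22 (−0.39 to −0.04), with 1 peak at −0.55 and 1 at 0.18. BCL11A, a repressor of fetal globin, gave −0.10 (−0.20 to 0.00), with 3 of its 6 peaks below 0. That is above the median of −0.15 over all 228 genes. MTA3 was lowest on 28 and 46 reads (−0.66, −1.39 to 0.05) and EGR4 highest on 51 and 34 (0.64, −0.01 to 1.31). DNMT3A was the 1 member with an interval over 0.06, and ASXL2, its neighbour, gave −0.03 (−0.32 to 0.26).

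Signalling and adhesion genes were measured in 16 of 22 cases, with 13 below 0, a median of −0.16 and no interval over 0.06. PPP3R1, the regulatory subunit of calcineurin, was lowest (90 and 170 reads, −0.86, −1.25 to −0.48). By nearest gene PPP3R1 gave −0.41, above the −0.62 of SOS1. CALM2, which encodes calmodulin, had 612 and 810 reads in its 2 promoter peaks (−0.35, −0.50 to −0.19). SPTBN1, a spectrin, differed little (1032 and 1085 reads, −0.02, −0.14 to 0.11), and EML4 was highest (0.45, −0.05 to 0.96), but −0.11 by nearest gene.

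Of 9 blood cell markers 3 had a peak: VAMP8, a SNARE of granule release (89 and 169 reads, −0.87, −1.26 to −0.49), PLEK, the pleckstrin of platelets and leukocytes (766 and 830 reads, −0.06, −0.20 to 0.08), and REL, an NF-κB subunit (−0.05, −0.28 to 0.18). CD8A, CD8B and GNLY, markers of cytotoxic lymphocytes, had no peak, and neither did the other list members CAPG, ARHGAP25 and RASGRP3. Of 9 genes of liver, gut, thyroid and lung 1 had a peak, APOB (144 and 128 reads, 0.23, −0.13 to 0.58).

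The list of neuronal genes had the lowest list median, −0.42 over 9 of 14 genes, which is the value of SLC8A1. Of these 7 were below 0, beside 72.8% of all genes, and 6 had an interval under 0.06, beside 39.5%. MYT1L was lowest, followed by LRRTM4 (−0.60, −1.03 to −0.17) and CTNNA2, an alpha-catenin of neurons, whose 3 intronic peaks were at −0.93, −0.37 and −0.42. SLC8A1, a sodium-calcium exchanger, had 106 and 148 reads in 2 peaks (−0.42, −0.80 to −0.05). OTOF (0.03) and DPYSL5 (0.13, but −0.03 by nearest gene), from the window at 25 to 30 Mb, were the 2 above 0. Peaks of these long genes lie mostly in introns. The list holds genes of this region only, so neuronal genes elsewhere were not compared.

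**Figure D4:**
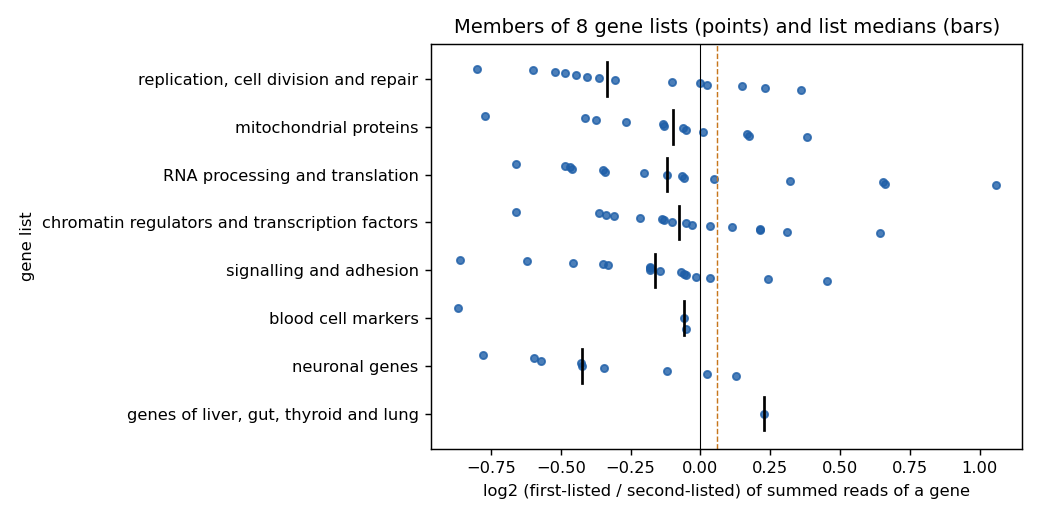
Log2 ratio of summed reads (x axis) of each gene with a peak in 8 gene lists (y axis); points are genes, black bars list medians, and the dashed line is the median of peaks beyond 90 Mb. Medians run from −0.42 for neuronal genes to −0.06 for blood cell markers, apart from the list of liver, gut, thyroid and lung genes, which holds APOB alone.

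Similar values were seen on chromosome 9 from 40 Mb (580 peaks, median −0.15) and chromosome 17 from 25 Mb (935 peaks, −0.18). Other stretches of the genome were not ranked against these. Both also had more reads in the second-listed column, with ratios of −0.14 (−0.16 to −0.13) and −0.19 (−0.21 to −0.18). They were chosen for the same difference, so no comparison with them was tested.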

How the data were processed

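H4K20me1 CUT&Tag was run on 4 Kasumi-1 libraries, and the authors deposited 1 table of peaks. The submitters' processing notes name cutadapt, Bowtie2 and build hg38 for each library and DESeq for the control and knockout libraries without #2. No source used here gives the peak caller, how duplicates were handled or which libraries entered the table. The deposited values are log2 scaled reads per peak for each of 2 groups, their log2 fold change, and the authors' unadjusted and adjusted p-value. All low values (log2 from 1.5 to 5.5) equalled log2 of a whole number plus 1 constant per column (0 and −0.057) within 0.0051, so reads were recovered. Above that range the table's 0.01 steps leave them approximate, and a value at the lowest step was taken as 1 read. The depth is the recovered reads. With 1 value per group, no test was made. Nothing says that libraries of a group were separate cultures, so any spread behind the authors' p-values may be technical.

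Exon and intron peaks went to the host gene that the annotation names, and promoter, UTR and downstream peaks to the nearest gene. The 143 intergenic peaks and those with no host number stayed without a gene, 188 in all. Of 228 gene symbols 227 were found in the RefSeq table of GRCh38.p14 and 193 had a promoter sequence. Genes named were the 10 lowest, 10 highest and 8 with most peaks among those with at least 300 reads, without LOC, LINC, antisense, divergent and small RNA genes, plus the lowest, highest and deepest of each list. Other list members, RRM2's sequence and genes of the runs were named after their values were seen, and some genes that the rule names are not reported here. The region, lists and tests were chosen with earlier results of these data known. Alternatives covered scaling, signal filters, the region's end, the comparison set, peak classes, window width, p limits and gene assignment. The scripts were checked on simulated data. Python 3.11.15, numpy 2.4.6, scipy 1.17.1 and pandas 2.3.3 were used.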

Additional observations from a re-analysis of the deposited data

How the results depend on the processing

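The region's median of −0.19 was −0.30 after scaling both columns to equal sums and −0.25 without scaling, since each shifts all peaks by a constant. Its distance of −0.25 from the rest of chromosome 2 was −0.35 for peaks of at least median signal and −0.33 among promoter peaks. There the region's median stayed at −0.19 while that of the rest was higher. The share of peaks under the median of the rest, 74.3%, was 83.6% and 85.1% in the same settings. The count of 42 lower peaks in the authors' deposited table (DESeq) was 0 at an adjusted p under 0.05, 12 at an unadjusted p under 0.01 and 19 among peaks of at least median signal, as stricter limits admit fewer. Windows of 2 Mb lay under the median of the rest in 43 of 45 cases, the exceptions being 32 to 34 Mb and 86 to 88 Mb, and windows of 10 Mb in 9 of 9. Of the windows of 5 Mb, 16 of 18 lay under the median of the rest without promoter peaks, and 17 of 17 with promoter peaks only. The other alternatives listed for these results moved no value past its interval, or no count by over 1.5 times. Of 179 gene values under alternatives 171 stayed within their counting interval. By nearest gene, which gives a gene other peaks, 3 genes changed sign: DNAAF10 gave 0.017, EML4 −0.11 and DPYSL5 −0.03. In that setting PPP3R1 gave −0.41, CTNNA2 −0.93, DNMT3A 0.17, PPP1CB 0.06, APOB 0.12, USP34 −0.07 and SPRED2 −0.03. Equal sums shift every value, the 0.06 of the rest included, by −0.114, so values just above 0 turn negative. Depth limits single peaks, most of whose intervals spanned 0.06. No paired analysis was possible because the table holds 1 column per group, and for the same reason no library could be left out.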
